A study of Homo sapiens with 16 samples.

Results

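The genes described here are the subunits of the transcription factor AP-1 that carry the names FOS, JUN and ATF3 on the array, with the small MAF protein MAFF. They were taken by the array's own gene names (FOS, FOSB, FOSL1, FOSL2, JUN, JUNB, JUND, ATF3 and MAFF), with every probe that was not a control. This gave 9 of 30971 named genes and 14 of 40982 probes tested. The genes were chosen by their measured difference from medium on these same arrays, under PT-G and PT, so each difference of these 9 genes from medium under the digests is a description and carries no test. Expression was measured on 16 single-colour Agilent arrays, 4 per condition, from undifferentiated cells of the line Caco-2, which was derived from a human colon tumour and grows as an epithelial sheet. Cells were kept in low-serum medium alone (MED-CTL) or with PT-G, PT or p31-43 for 6 h, the only time measured. PT-G is gliadin digested with pepsin and trypsin, PT is the same digestion without any substrate, and p31-43 is a synthetic gliadin peptide given at 150 µg/ml. Per the study's methods the enzymes were inactivated by heat before use, and all cultures, MED-CTL included, were detached with trypsin-EDTA when they were collected. The study describes 4 independent experiments on cells of neighbouring passages of this 1 line.

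AP-1 is a dimer. JUN proteins pair with each other or with FOS proteins, FOS proteins cannot pair among themselves, and the dimers bind short palindromic sites in promoters and enhancers. The FOS and JUN genes are early response genes, switched on within minutes by growth factors, stress and protease-activated receptors, and the FOS mRNA in particular is short-lived, whereas the FRA proteins encoded by FOSL1 and FOSL2 usually appear later. In intestinal epithelium AP-1 is known for its part in proliferation, wound closure and the response to injury.

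The promoters of members that stood apart from medium (JUNB, ATF3 and MAFF) and of members whose arrays overlapped with medium (FOS, FOSB and JUN) are shown first, to let their regulatory letters be compared. Each is the stretch of 150 bases just before the RefSeq start site in GRCh38.p14, printed 5′ to 3′ on the strand of the gene. Capitals mark matches to TGACATCA (the jun element), TGACGTCA (the cAMP response element, which binds CREB and ATF factors), its shorter form TGACGT, and TATAAA (the TATA box), on either strand.
FOS, chr14:75278678-75278827, plus strand: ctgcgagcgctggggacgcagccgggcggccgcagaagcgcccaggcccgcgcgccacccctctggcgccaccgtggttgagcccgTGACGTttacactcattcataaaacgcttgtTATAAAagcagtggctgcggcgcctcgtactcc
FOSB, chr19:45467846-45467995, plus strand: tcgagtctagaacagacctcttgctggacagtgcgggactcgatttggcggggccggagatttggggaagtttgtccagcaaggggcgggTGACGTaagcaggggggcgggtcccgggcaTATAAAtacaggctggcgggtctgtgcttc
JUN, chr1:58784048-58784197, minus strand: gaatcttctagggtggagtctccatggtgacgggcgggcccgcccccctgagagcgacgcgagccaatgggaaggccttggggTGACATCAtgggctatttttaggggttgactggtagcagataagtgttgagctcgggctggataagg
JUNB, chr19:12791336-12791485, plus strand: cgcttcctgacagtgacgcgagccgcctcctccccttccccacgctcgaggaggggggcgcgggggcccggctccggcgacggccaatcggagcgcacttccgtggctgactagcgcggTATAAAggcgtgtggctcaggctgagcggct
ATF3, chr1:212565257-212565406, plus strand: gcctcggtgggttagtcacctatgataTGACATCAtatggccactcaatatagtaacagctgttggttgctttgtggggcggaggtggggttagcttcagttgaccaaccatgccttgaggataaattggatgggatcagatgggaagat
MAFF, chr22:38201844-38201993, plus strand: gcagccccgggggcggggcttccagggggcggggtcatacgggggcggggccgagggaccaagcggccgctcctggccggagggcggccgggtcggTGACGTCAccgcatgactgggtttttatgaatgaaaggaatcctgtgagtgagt
FOS and FOSB had the same arrangement, with TGACGT starting 64 and 60 bases before the start site and TATAAA 33 and 30 bases before it. JUN held TGACATCA at 67 bases and ATF3 at 123 bases before the start, MAFF held TGACGTCA at 54 bases, and JUNB held only TATAAA, at 31 bases. The search covered 300-base windows, 250 before to 50 after the start. The table held 10 windows for 8 of the 9 genes, with a further window each for ATF3 and MAFF, and none for FOSL1. For ATF3 and MAFF the first window by position is printed above. The further ATF3 window held TATAAA 230 bases before its start, and that of MAFF held no motif searched. Which of the starts gave the measured mRNA was not tested. TGACATCA was present in 2.61% of all 35116 windows of the table, TGACGTCA in 1.85%, TGACGT, which is contained in TGACGTCA, in 7.98% and TATAAA in 11.5%. JUND also held TGACGTCA, 200 bases before its start, and FOSL2 held TGACTCA, the classical AP-1 site, 5 bases after it, a motif found in 4.95% of windows. None of the members' windows matched the CArG box bound by SRF (1.29% of windows) or the EGR site GCGNGGGCG (9.43%). Sites farther than 250 bases before the start were not searched, so a match there would have been missed. Both groups of members held such motifs, so these letters did not separate the genes that stood apart from medium from the others.

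The median intensity of an array lay between 153 and 410 over a median local background of 48 to 65, and 27660 to 33947 spots per array were well above background. All 14 member probes were well above background on all 16 arrays. Each of 4 runs held 1 array per condition, and values below are given in the order of runs 1 to 4, on the scale of log2 intensity after quantile normalization. MED-CTL replicates 1 and 2 belonged to runs 2 and 1, and all other replicates to the run of their number. The PT array of run 3 and the p31-43 array of run 4 lay on a slide of their own. Each of the 5 slides had its own scan. Of 10 epithelial markers, 9 were well above background on every array (GPA33 on 15). Of 10 markers of leukocytes, fibroblasts and endothelium, 8 were above background on every array, PTPRC and CDH5 on none, and none of the 10 had a nominal p under 0.01 in any comparison (limma, without a block).

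After 6 h, the mean signals of FOSL1, JUNB and MAFF were 2.93 to 3.54 times and that of ATF3 1.83 to 2.21 times as high under the digests as in medium, with no array of MED-CTL reaching the lowest digest array. JUND was higher by a smaller amount. FOS, FOSB and JUN had higher means under both digests, but their arrays overlapped with those of MED-CTL. FOSL2 differed by less than the spread between arrays, though its brightest probe was higher than medium in every run under both digests. None of the 9 genes stood apart from medium under p31-43. Between PT-G and PT none had a nominal p under 0.01 (limma, without a block).

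**Figure D1:**
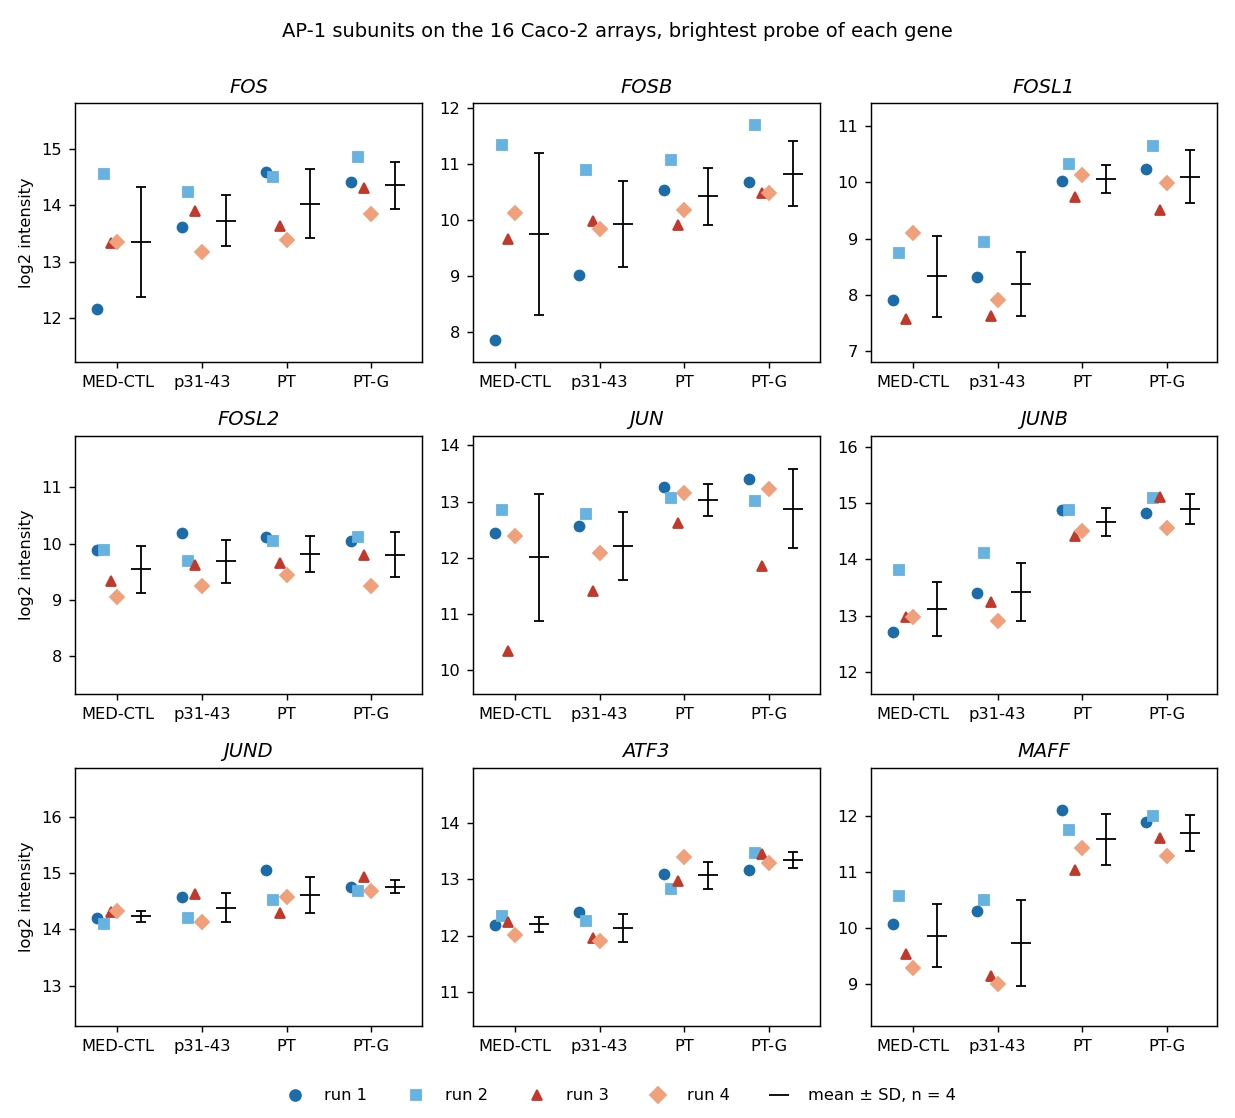
Log2 intensity of the brightest probe of each of the 9 genes on the 16 arrays, by condition, with 1 marker shape per run. Black bars are the mean and SD of 4 arrays, and each panel spans the same number of log2 units. FOSL1, JUNB, ATF3 and MAFF separate PT and PT-G from MED-CTL and p31-43, while FOS and FOSB have a low MED-CTL array of run 1 and JUN has a low MED-CTL array of run 3.

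FOS, the founding partner of JUN in AP-1 (probe A_23_P106194), gave log2 intensities of 12.16, 14.56, 13.34 and 13.35 in MED-CTL. Under PT-G they were 14.41, 14.87, 14.32 and 13.84. Under PT they were 14.60, 14.51, 13.63 and 13.38, and under p31-43 they were 13.61, 14.24, 13.90 and 13.17. The MED-CTL arrays alone spanned more than 2 log2 units, with run 1 lowest and run 2 highest, and the run 2 array in medium was as bright as the brightest PT arrays. The mean was 1.01 higher in PT-G (SE 0.43, n = 4 arrays each), 0.68 higher in PT and 0.38 higher in p31-43 on the log2 scale. Without the MED-CTL array of run 1 (replicate 2) these differences were 0.61, 0.28 and −0.02, and without that of run 2 (replicate 1) 1.41, 1.08 and 0.78. The order of the means was MED-CTL, p31-43, PT, PT-G, and no neighbours in that order were separated beyond their spread.

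FOSB, whose protein also pairs with JUN (A_23_P429998), showed the same arrays at its extremes. Its MED-CTL values were 7.86, 11.33, 9.66 and 10.13, a range of over 3 log2 units. Under PT-G they were 10.67, 11.69, 10.47 and 10.48, and under PT 10.54, 11.06, 9.90 and 10.17. The p31-43 arrays lay at 9.02, 10.89, 9.98 and 9.85. Again medium was lowest in run 1 and highest in run 2, and the groups overlapped throughout. The log2 difference from MED-CTL was 1.08 for PT-G (SE 0.59), 0.68 for PT and 0.19 for p31-43. Without the MED-CTL array of run 1 it was 0.45 for PT-G, 0.05 for PT and −0.44 for p31-43. Without that of run 2 it was 1.61, 1.20 and 0.72, so that the size depended on single arrays in medium.

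FOSL1 encodes FRA1, a FOS relative without the activating C-terminal domain that accumulates in migrating and RAS-driven epithelial cells. Its brighter probe (A_23_P161624) gave 7.90, 8.75, 7.57 and 9.10 in MED-CTL. The PT-G arrays gave 10.24, 10.65, 9.51 and 10.00, the PT arrays 10.02, 10.34, 9.74 and 10.14, and the p31-43 arrays 8.32, 8.94, 7.62 and 7.92. All 8 digest arrays were brighter than all 8 arrays of cells without enzymes. The difference from MED-CTL was 1.77 under PT-G and 1.73 under PT on the log2 scale (SE 0.35), or 3.41-fold and 3.32-fold, and −0.13 under p31-43. Of all 40982 probes, 13 had a larger increase under PT-G and 16 under PT. The means of PT and PT-G were 10.06 ± 0.25 and 10.10 ± 0.47 (SD, n = 4), and those of MED-CTL and p31-43 8.33 ± 0.71 and 8.20 ± 0.57, so that within each pair of conditions the means lay closer than the spread. A second probe, whose target starts 608 bases away (A_23_P322519), was 3.18-fold higher under PT-G and 2.84-fold higher under PT (log2 SE 0.44), also without overlap.

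FOSL2 encodes FRA2, the other late FOS relative. Its brightest probe (A_23_P218555) gave 9.89, 9.89, 9.33 and 9.06 in MED-CTL and 10.05, 10.12, 9.80 and 9.25 under PT-G. Under PT the values were 10.13, 10.05, 9.66 and 9.45, and under p31-43 10.19, 9.68, 9.63 and 9.25. The arrays followed the run more than the condition, and the 4 groups overlapped. The log2 difference was 0.26 for PT-G, 0.28 for PT and 0.14 for p31-43 (SE 0.25). The other probes, 1655 and 373 bases away, were 0.30 and 0.15 higher under PT-G, and 0.15 and 0.09 higher under PT. FOSL2 had the smallest difference of the 9 genes under either digest.

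JUN, the partner of all FOS proteins (A_23_P201538), was measured by 10 spots per array, whose SD within an array was between 0.105 and 0.228. The MED-CTL values were 12.45, 12.86, 10.35 and 12.38. They were 13.41, 13.02, 11.85 and 13.22 under PT-G, 13.27, 13.07, 12.62 and 13.15 under PT, and 12.57, 12.78, 11.41 and 12.10 under p31-43. Run 3 was the lowest in every condition, and its MED-CTL array lay over 2 log2 units below the other 3, far beyond the spread of the 10 spots. The log2 difference from MED-CTL was 0.87 under PT-G and 1.02 under PT (SE 0.49), and 0.20 under p31-43. Without the MED-CTL array of run 3 it was 0.31, 0.46 and −0.35. The order of the means was MED-CTL, p31-43, PT-G, PT, with overlapping neighbours.

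JUNB, a JUN protein that often restrains JUN and is strongly induced by growth factors (A_23_P4821), was the member of the JUN family with the largest difference. In MED-CTL it gave 12.70, 13.82, 12.97 and 12.98. It gave 14.82, 15.10, 15.11 and 14.56 under PT-G, 14.88, 14.89, 14.41 and 14.50 under PT, and 13.40, 14.12, 13.25 and 12.91 under p31-43. The highest medium array, from run 2, was still below every digest array, and p31-43 overlapped with medium. The difference from MED-CTL was 1.78 for PT-G (3.44-fold), 1.55 for PT (2.93-fold) and 0.30 for p31-43 on the log2 scale (SE 0.26). In PT-G, 12 of all probes had a larger increase. A dimmer JUNB probe 1049 bases away (A_24_P241815) was 1.31 higher under PT-G and 1.18 higher under PT (SE 0.48), but its arrays overlapped with medium.

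JUND, the JUN protein that resting cells keep at a steady level (A_23_P365610), gave 14.20, 14.10, 14.30 and 14.32 in MED-CTL, the narrowest range of the 9 genes in medium. Under PT-G the values were 14.76, 14.67, 14.93 and 14.68. Under PT they were 15.05, 14.53, 14.29 and 14.57, and under p31-43 14.57, 14.21, 14.64 and 14.13. All PT-G arrays lay above medium, whereas the PT array of run 3 lay within it. The log2 difference was 0.53 for PT-G, 0.38 for PT and 0.15 for p31-43 (SE 0.15), so the PT-G difference corresponds to 1.45-fold.

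ATF3 belongs to the ATF and CREB branch of the same superfamily, pairs with JUN proteins and is a common marker of cellular stress. Its brighter probe (A_23_P34915) gave 12.19, 12.35, 12.24 and 12.01 in MED-CTL and 12.42, 12.25, 11.96 and 11.91 under p31-43. Under PT-G it gave 13.16, 13.46, 13.46 and 13.28, and under PT 13.10, 12.82, 12.97 and 13.39. The digest arrays and the others formed ranges that did not touch, and in the digests and medium the SD was at most 0.24. The difference from MED-CTL was 1.14 under PT-G (2.21-fold) and 0.87 under PT (1.83-fold) on the log2 scale (SE 0.14), and −0.06 under p31-43. The second probe, 1019 bases away (A_24_P33895), was 0.95 higher under PT-G, with 1 array overlapping medium, and 0.68 higher under PT (SE 0.27), without overlap.

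MAFF is a small MAF protein, a DNA-binding partner without an activating domain that pairs with itself, with NRF2-type factors and with some FOS proteins (A_23_P103110). It gave 10.07, 10.56, 9.54 and 9.29 in MED-CTL and 10.30, 10.49, 9.15 and 9.01 under p31-43. Under PT-G it gave 11.90, 11.99, 11.60 and 11.29, and under PT 12.10, 11.75, 11.02 and 11.43. The lowest digest array was above the highest array without enzymes. The difference from MED-CTL was 1.83 under PT-G (3.54-fold), the largest of the 9 genes, 1.71 under PT (3.27-fold) and −0.13 under p31-43 on the log2 scale (SE 0.37).

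**Figure D2:**
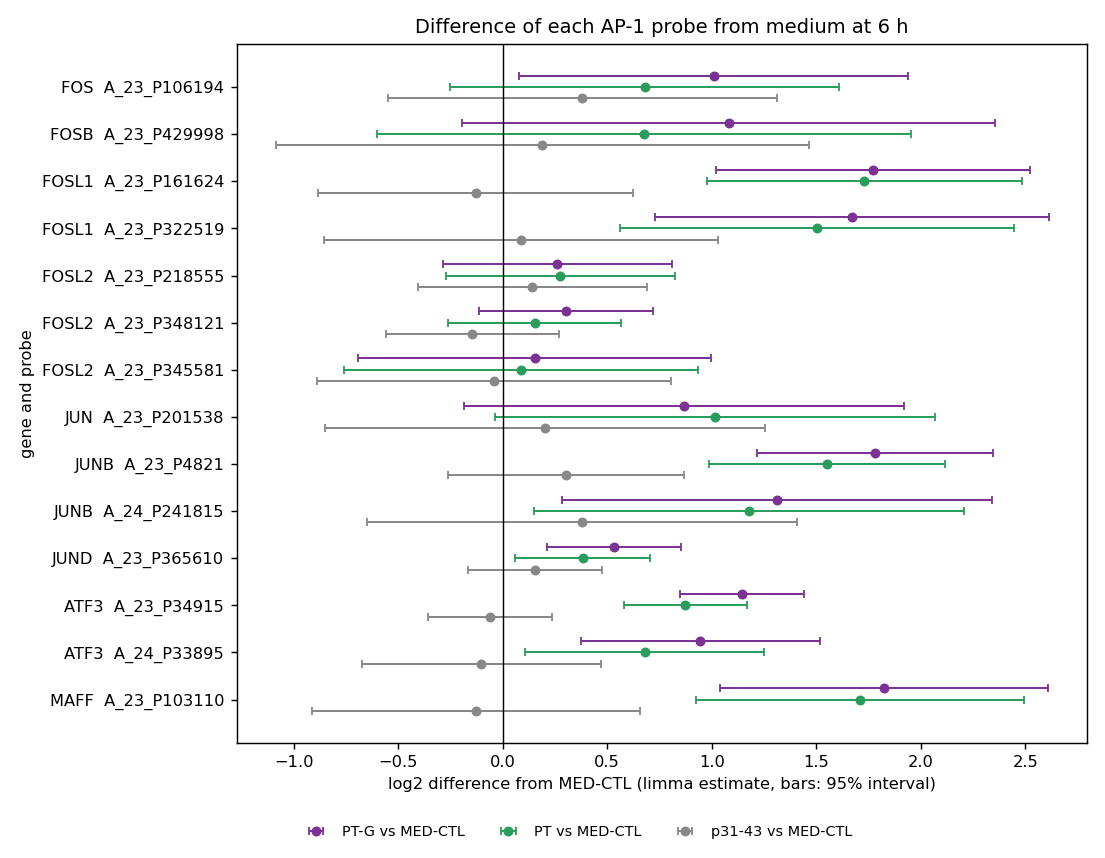
Log2 difference from MED-CTL of each of the 14 probes under PT-G, PT and p31-43, with the 95% interval of the limma fit. The intervals of both FOSL1 probes, both JUNB probes, JUND, both ATF3 probes and MAFF lie above 0 under both digests, and all intervals of p31-43 include 0.

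Between PT-G and MED-CTL, 7 of the 14 probes had a nominal p under 0.01, the threshold of the study, where 3.44% of all probes passed it. These were both FOSL1 probes, JUNB's brighter probe, JUND, both ATF3 probes and MAFF. Between PT and MED-CTL it was passed by 5 of 14, with 3.64% of all probes, and of those 7 probes JUND and the second ATF3 probe did not pass. With an adjusted p under 0.05 the counts were 4 and 4, beside 0.944% and 0.82% of all probes, and the genes were FOSL1, JUNB, ATF3 and MAFF in both digests. Arrays above medium without overlap were found for 6 of 14 probes under PT-G, against 2.01% of all probes, and for 6 of 14 under PT, against 2.36%. Because the genes were chosen for this difference, nothing is read from these counts. PT-G and PT were set against the same 4 MED-CTL arrays, so a deviation of a MED-CTL array appears in both. Every one of the 14 probes had a higher mean in both digests, beside 47.9% of all probes in PT-G and 47% in PT. The median difference over the 9 brightest probes was 1.08 in PT-G and 0.87 in PT, where the median of all probes was −0.01 in both. Each array held the RNA of a whole culture, so more responding cells and more RNA per cell cannot be told apart.

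Compared within a run, FOSL1, JUNB, ATF3 and MAFF were higher than medium in 4 of 4 runs under both digests. For MAFF the differences in runs 1 to 4 were 1.83, 1.42, 2.06 and 1.99 under PT-G. For JUNB they were 2.12, 1.29, 2.13 and 1.58, and for ATF3 0.97, 1.12, 1.22 and 1.27. FOSL1 ranged more widely, from 0.90 in run 4 to 2.34 in run 1. FOS behaved differently, with 2.25, 0.31, 0.98 and 0.49 under PT-G and 2.44, −0.05, 0.29 and 0.03 under PT. FOSB likewise gave 2.81, 0.36, 0.81 and 0.34 under PT-G and 2.68, −0.27, 0.25 and 0.04 under PT. In both genes run 1 stood out, and the other 3 PT arrays lay within 0.3 log2 units of their medium. JUN was higher in 4 of 4 runs, by 0.96, 0.16, 1.51 and 0.84 under PT-G and by 0.82, 0.22, 2.27 and 0.77 under PT, with run 3 highest. The brightest FOSL2 probe was also higher in 4 of 4 runs. Its differences were 0.16, 0.23, 0.46 and 0.19 under PT-G and 0.23, 0.15, 0.33 and 0.39 under PT. The other FOSL2 probes were higher in 3 or 4 of 4 runs. For the brightest FOSL2 probe the SE was 0.09 with the run as a block, in place of 0.25 without one. With the run as a block, the difference under PT-G was 0.87 for JUN (SE 0.25) and 1.31 for the dimmer JUNB probe (SE 0.24). It was 1.01 for FOS (SE 0.33) and 1.08 for FOSB (SE 0.39). The nominal threshold was then passed by 9 of 14 probes, JUN and the dimmer JUNB probe included, beside 9.16% of all probes in place of 3.44%. With the replicate number as the block 9 of 14 passed too, beside 7.59% of all probes. The genes were chosen for this difference, so nothing is read from which of them passed.

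**Figure D3:**
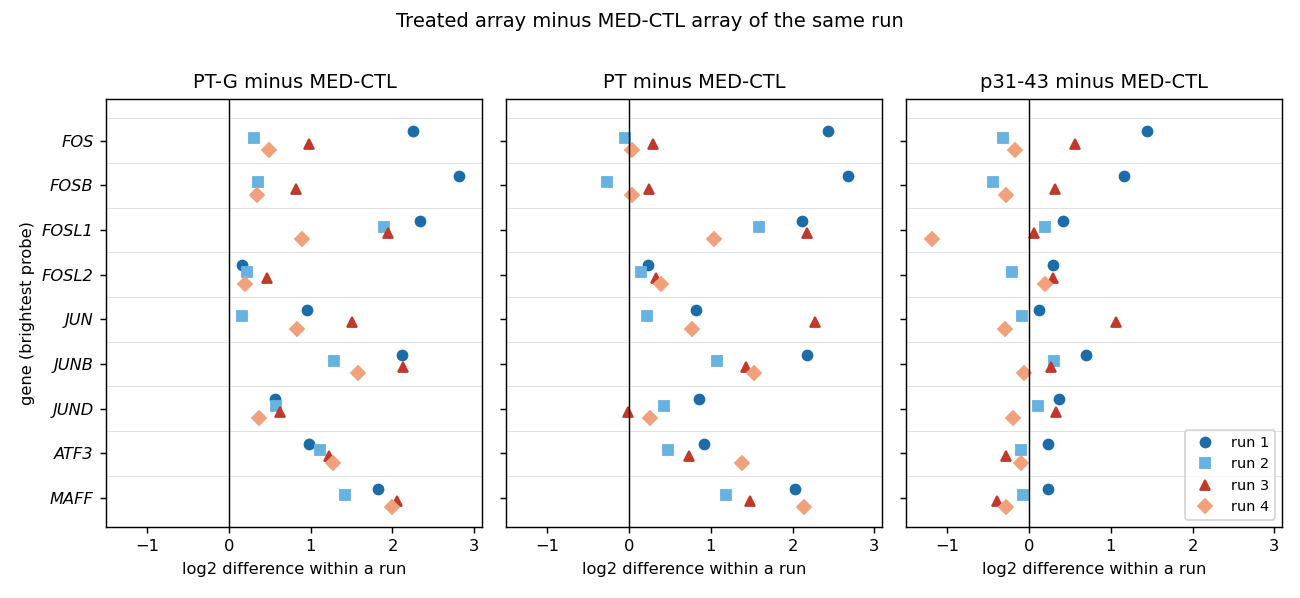
Log2 difference between the treated array and the MED-CTL array of the same run, for the brightest probe of each gene and each of 4 runs. FOSL1, JUNB, ATF3 and MAFF lie right of 0 in every run under PT-G and PT, as do JUN and FOSL2. FOS and FOSB reach over 2 in run 1 only, and under p31-43 the runs of each gene scatter around 0.

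The peptide p31-43 was compared with medium to ask whether a single gliadin fragment acts on these genes. The nominal threshold was passed by 0 of 14 probes, with 0.388% of all probes passing, and 0 of 14 had an unadjusted p under 0.05, with 2.15% of all probes (limma). By the adjusted rule 0 of 14 passed, as did 0% of all probes. Among the brightest probes the largest mean difference was that of FOS, 0.38, which changed from 1.45 in run 1 to −0.32 in run 2. For FOSL1, JUNB, ATF3 and MAFF the 95% intervals reached up to 0.62, 0.87, 0.23 and 0.66, in each case below the difference measured under PT-G. In the fit without a block, the intervals of FOS, FOSB and JUN reached 1.31, 1.47 and 1.26, above their PT-G differences. In that fit a difference as large as under PT-G lay within the interval for these 3 genes. With the run as a block their SEs were smaller, at 0.33, 0.39 and 0.25 in place of 0.43, 0.59 and 0.49. Whether the intervals with this block also held such a difference was not tested.

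PT-G and PT differ by the presence of gliadin in the digestion, and this difference was not used to choose the genes. None of the 14 probes passed the nominal threshold, as against 0.0903% of all probes, 0 had an unadjusted p under 0.05, as against 0.781%, 0 passed the adjusted rule, as did 0% of all probes, and each had an adjusted p of 1.00 (limma, Benjamini-Hochberg over 40982 probes). Under the 26 alternative settings the lowest adjusted p of any member was 0.899. The largest difference was that of FOSB, 0.41 (95% interval −0.87 to 1.68), which was higher in PT-G in 4 of 4 runs, by 0.13, 0.62, 0.57 and 0.30. ATF3 differed by 0.27 (−0.02 to 0.57) and FOS by 0.33 (−0.60 to 1.26). JUNB differed by 0.23 (−0.33 to 0.79), MAFF by 0.12 (−0.67 to 0.90) and FOSL1 by 0.04 (−0.71 to 0.79). JUN, at −0.15 (−1.20 to 0.90), and the brightest FOSL2 probe, at −0.01, were the ones with a lower mean in PT-G. In all, 12 of 14 probes had a higher mean in PT-G, beside 52.9% of all probes. Run 3 gave the widest differences of 5 of the 9 brightest probes, with PT-G above PT by 0.70 for JUNB, 0.69 for FOS, 0.64 for JUND and 0.57 for MAFF, and a difference of −0.76 for JUN. The PT array of that run lay on another slide than the PT-G array. In a fit with a term for the slide, the difference of JUND was 0.02, that of JUNB 0.13 and that of JUN 0.10.

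**Figure D4:**
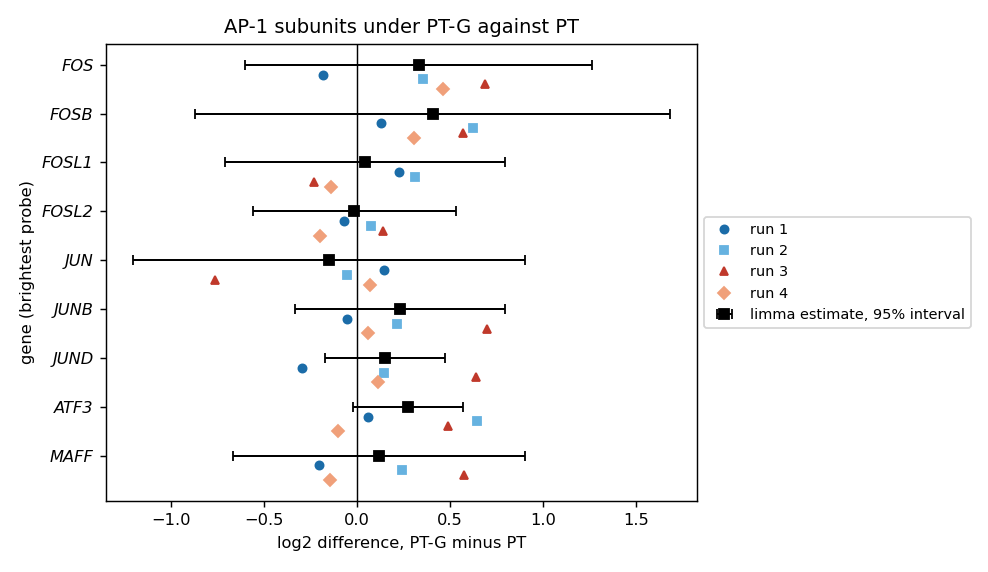
Log2 difference between PT-G and PT for the brightest probe of each gene, as the limma estimate with its 95% interval and as the difference within each run. All 9 intervals include 0, and run 3 holds the point farthest from 0 for 5 of the 9 genes.

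The levels of some members also differed between runs. With the pair of runs as a term in the model, a term added after the data had been seen, all 14 probes had lower means in runs 3 and 4 than in runs 1 and 2, as had 49.4% of all probes. An adjusted p under 0.05 was reached by 5 of 14 probes (limma), beside 25.8% of all probes. MAFF fell by 0.85 (SE 0.12, limma, adjusted p = 2.65e-04), the second FOSL1 probe by 1.07 (SE 0.12, limma, adjusted p = 5.21e-05) and the brightest FOSL2 probe by 0.57 (SE 0.10, limma, adjusted p = 7.53e-04). A further FOSL2 probe and the dimmer JUNB probe passed as well. The other 9 probes did not pass, and for the brightest ATF3 probe and JUND the differences were −0.07 and −0.03. The pairs of runs differ in their slides and scans, and possibly in their cultures, which the labels do not give for a run. These cannot be told apart.

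Among the members, the brightest probes of JUNB and MAFF followed each other most closely over the 16 arrays (Pearson r 0.94), then ATF3 and MAFF (0.91), JUNB and ATF3 (0.90), FOSL1 and JUNB (0.90) and FOS and FOSB (0.90). FOSB and FOSL2 had the lowest value, 0.15. After each condition's mean had been taken out, the pairs of FOS with FOSB (0.87) and FOS with JUNB (0.85) stayed high, whereas ATF3 with JUNB fell to 0.38. The points share conditions, runs and slides, so these values describe the arrays and are given without a test. Across 12853 other genes well above background on all arrays, those most like each member over the 16 arrays were named by the same measure. For JUNB they were EGR4 (0.98), BTG2 (0.97) and FLJ37078 (0.97), for ATF3 TRIB1 (0.98), ERRFI1 (0.97) and NR4A3 (0.96), and for MAFF PLK3 (0.97), NAB2 (0.97) and ARL14 (0.97). FOSL1 was most like EDN1 (0.97), ZFP36 (0.95) and NR1D1 (0.95). The values were lower for FOS, with SEC14L2 (0.86), LARGE (0.85) and KLF4 (0.81), and for FOSB, with EGR2 (0.86), KCNN4 (0.85) and DHRS10 (0.83). JUN was most like NFKBIB (0.98), TMEPAI (0.96) and FLJ45248 (0.95), JUND like SPRED2 (0.88), HSPA1A (0.86) and CDYL (0.86), and FOSL2 like DBNDD1 (0.95), TRIM16 (0.94) and GATA2 (0.93).

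The other partners of AP-1 were compared by a list of 12 genes (BATF, JDP2, ATF and MAF proteins), of which 11 were measured, all above background on every array. MAFG, another small MAF protein, passed the nominal threshold under both digests, as 1 of 11 genes in each. Of all probes 3.44% passed it under PT-G and 3.64% under PT. MAFG rose from 13.31 to 14.16 under PT-G, by 0.84 (SE 0.17, limma, adjusted p = 0.0364), and was 0.79 higher under PT (limma, adjusted p = 0.0543). Another list held 26 genes, the MAP kinases, their activating kinases and the SRF and ELK factors that act upstream of FOS. Of these, 2 passed under PT-G, both higher, and 0 under PT, beside the same shares of all probes. Among the 2 was ELK4, an SRF partner, which was 0.45 higher under PT-G (SE 0.12, limma, adjusted p = 0.142). The median difference of this list was 0.01 under PT-G and 0.05 under PT.

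Of 25 genes that textbooks name as AP-1 targets, 4 passed the nominal threshold under each digest, none of them downward. This stands beside 3.44% of all probes under PT-G and 3.64% under PT. The medians of the list were 0.13 and 0.07. On all 16 arrays 15 of the 25 genes exceeded background clearly, and 2 of them nowhere. HBEGF, a ligand of the EGF receptor, rose by 0.94 under PT-G (SE 0.13, limma, adjusted p = 0.00267) and by 1.01 under PT (limma, adjusted p = 0.00207). AREG, another such ligand, was 0.69 higher under PT-G (SE 0.16, limma, adjusted p = 0.0654) and 0.61 higher under PT (limma, adjusted p = 0.120). The chemokine IL8 was well above background on all 8 digest arrays and on no MED-CTL array, so its level in medium was not measured. Its mean signal was 1.72-fold higher under PT-G (limma, adjusted p = 0.0126) and 1.69-fold higher under PT (limma, adjusted p = 0.0172). The cytokine IL6 was well above background on 4 PT-G, 2 PT and 1 MED-CTL arrays. Its mean signal was 1.18-fold higher under PT-G (limma, adjusted p = 0.126) and 1.18-fold higher under PT (limma, adjusted p = 0.139). The folds of IL8 and IL6 are differences of means close to the background and are no lower bounds. The remaining 21 genes, the matrix metalloproteinases, PLAU, PLAUR and CCND1 among them, did not pass under either digest without a block. With the replicate number as a block 8 of the 25 passed under PT-G, where 7.59% of all probes did, and 6 under PT, where 8.49% did. Under p31-43 the count was 1 of 25, MMP9, which was 0.27 lower (SE 0.07, limma, adjusted p = 1.00). Of all probes 0.388% passed under p31-43. Between PT-G and PT none of the genes of these lists passed, beside 0.0903% of all probes. Of the 10 epithelial markers, 1 passed under each digest. This was KRT20, a keratin of mature enterocytes. It was 0.63 higher under PT-G (SE 0.12, limma, adjusted p = 0.0251) and 0.50 higher under PT (limma, adjusted p = 0.0884). The part of KRT20 in the differences of the members was not tested. The median difference of the epithelial list was −0.06 under PT-G and −0.12 under PT. In a fit with a term for the run, 1 marker passed upward and 1 downward under PT-G, beside 9.16% of all probes. Under PT, 1 passed upward and 2 downward, beside 10.3%.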

How the data were processed

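The members and all gene lists were chosen with earlier results of these data known. Per the file headers, the authors' scanner software (Agilent Feature Extraction) gave each spot as a linear intensity that had not been normalized across arrays. The deposited log2 table holds, by the authors' methods, quantile-normalized median foreground signals, with no background correction. Here the log2 median intensity of 43376 non-control spots per array was normalized the same way. Outlier-marked spots were removed and replicate spots of a probe were averaged. Member probes differed from the deposited log2 values by at most 0.0275. Control spots (1639 per array) were removed, as were 18 probes for which a group kept fewer than 3 arrays. The probe filter and re-annotation that the methods describe were not used here.

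Samples were grouped by their titles. Runs were read from the names of the deposited files and slides and scans from the scanner files. The 40982 probes entered a single linear model of the 4 conditions (limma 3.58.1, R 4.3.3), whose moderated two-sided tests had 12 residual and 1.88 prior degrees of freedom. P-values were adjusted after Benjamini and Hochberg. A probe was called at a nominal p under 0.01, and an adjusted p under 0.05 was the other rule. A gene with several probes was described by its brightest, the one with the highest mean over 16 arrays. The genes named are the 9 members, the 3 genes most like each, and the genes of each list that were called, except 1 that is not reported here. For a gene that a group did not measure above background on all 4 arrays, the brighter group's mean was set over that of the dimmer group. No array of the dimmer group was taken as lower than its dimmest probe well above background. For IL8 and IL6 this floor changed no value, so the figures are the plain differences of the log2 means, given as folds. Same-numbered arrays of PT-G and MED-CTL deviated together (r across probes between 0.395 and 0.857), as did those of p31-43 and MED-CTL (0.262 to 0.707). For PT and MED-CTL (−0.01 to 0.41) and for PT-G and PT (0.05 to 0.70) some same-numbered arrays did not. Matched by run in place of number, the values were, in the same order, 0.628 to 0.857, 0.538 to 0.707, −0.01 to 0.62 and 0.05 to 0.70. For PT-G and p31-43 against MED-CTL the lowest r was higher by run, so the run matched these arrays better than the number. Alternatives were other signals, background corrections and scalings, the deposited table, a filter on dim probes, marked spots kept, blocks, a fit of only the groups compared, and each array left out. The model was tested on simulated data. Promoters came from a RefSeq table on GRCh38.p14. The files name no genome build for the probes, so only distances between probes are given. Depth here means signal over background, and precision is limited by the number of arrays. Figures were drawn with matplotlib 3.10.9.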

Additional observations from a re-analysis of the deposited data

Results flagged for a closer look

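FOSB had 1 array far from the others of its condition. Under PT-G, replicate 2 (run 2) lay at 11.69, while the other 3 PT-G arrays lay between 10.47 and 10.67, so that the gap to the nearest array was 0.840 of the whole range of the group. This was 1 of 36 groups of 4 arrays looked at for the brightest probes of the 9 genes, where chance alone marks about 1 in 20. The FOSB array of run 2 was also the highest under MED-CTL, p31-43 and PT. Without it, the difference of FOSB between PT-G and PT was 0.12 in place of 0.41.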

How the results depend on the processing

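Each result was recomputed under 26 alternatives, and counts also with the adjusted rule. No called difference changed its sign. Of 364 differences each, 363 under PT-G and 363 under PT moved by less than the spread between arrays, the exceptions being the second FOSL1 probe with the background-subtracted signal (2.38 under PT-G and 2.22 under PT), as did all 364 under p31-43. The count of members called between PT-G and MED-CTL was 7, and 4 with the adjusted rule. Leaving out 1 array gave 5 to 8. Between PT and MED-CTL it was 5, and 8 with the replicate number as a block, 8 with the run, 10 with the slide, and 4 to 6 without 1 array. For PT-G the number, run or slide as a block gave 9 each. With these blocks the share of all probes called rose as well, from 3.64% to 8.49%, 10.3% and 10.6% under PT and from 3.44% to 7.59%, 9.16% and 12.2% under PT-G. The blocks changed no call under p31-43 or between PT-G and PT, where the count stayed at 0 in every alternative run. Median scaling moved the median of all probes to −0.11 under PT (−0.01 without it), and relative to it all members kept their direction under both digests. The FOSL2 probe A_23_P345581 took either sign under both digests when single arrays were left out. The small differences between PT-G and PT changed most, with 23 of 364 beyond the spread, and FOSL1, FOSL2, JUN, MAFF and the dimmer JUNB probe took either sign. Under p31-43 ATF3 was 0.06 higher in place of 0.06 lower with median scaling.

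Of the 11 partners, 26 upstream genes and 25 targets measured, with markers not counted, 7 were called under PT-G, beside 3.44% of all probes. With a block for the replicate number or the run 14 were called, beside 7.59% and 9.16% of all probes. The slide as a block gave 16, beside 12.2%, and the adjusted rule 3, beside 0.944%. Without 1 array the count was 6 to 10. Under PT it was 5, then in the same order 12, 12, 14 and 2. The shares of all probes beside these counts were 3.64%, 8.49%, 10.3%, 10.6% and 0.82%. Without 1 array the count under PT was 5 to 8, the 8 being without MED-CTL replicate 1. Under p31-43 it was 1, beside 0.388% of all probes, and 5 with the slide as a block, beside 3.73%. It was 0 with the background-subtracted signal, median scaling, the filter on dim probes or the adjusted rule. Without 1 array it was 1 to 2, the 2 being without MED-CTL replicate 4. The cause of these changes was not tested. With 4 arrays per condition and no block, the SE of a difference from medium was 0.43 for FOS, 0.59 for FOSB and 0.49 for JUN, and IL8 and IL6 were limited by signal over background.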
